A study of Mus musculus with 2 samples.

Results

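Mouse zinc finger genes whose array name begins with Zfp and a digit were examined in activated B cells transduced with a retrovirus that encodes the microRNA miR-181b. The members were chosen by that name and by detection: at least 1 probe of the gene had to carry the scanner's flag for a signal well above background in each of the 4 channels. Of 251 such names, 224 met the rule, among 17694 gene names measured in the same way. Of the 27 names left out, 17 were above background in no channel, 8 in some channels, and 2 (Zfp58 and Zfp316, named here for that reason after their values were seen) in the miR-181b RNA alone on both arrays. For Zfp58 the log2 levels were 6.68 and 6.41 in control RNA and 6.58 and 6.64 in miR-181b RNA, and for Zfp316 they were 6.46 and 6.44 in control and 6.44 and 6.62 in miR-181b RNA, so the groups overlapped and no fold is given. The detection rule used intensities, so membership is not a finding. Just inside it, the lowest of the 4 signals divided by the flag's threshold was 1.05 for Zfp9, 1.14 for Zfp112, 1.19 for Zfp354b and 1.31 for Zfp629 and Zfp365. Just outside, it was 0.842 for Zfp128, 0.77 for Zfp111, 0.698 for Zfp174, 0.66 for Zfp316 and 0.558 for Zfp58.

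The RNAs are those of C57BL/6 mouse B cells taken from the spleen, purified by removing cells that carry CD43 and cultured with lipopolysaccharide (LPS, 25 µg/ml) and interleukin-4 (IL-4, 10 ng/ml), which activate B cells. The cells were exposed to retrovirus for 20 h with polybrene (8 µg/ml), a polymer that aids infection, and cells positive for green fluorescent protein (GFP) were sorted 2 days after transduction. The control group carried a GFP vector and the other group a miR-181b vector that also encodes GFP. There was 1 RNA per vector, and both RNAs were hybridised together on 2 whole-genome arrays with the dyes exchanged. By the labels both groups shared the strain and the protocols of activation, infection and sort. With 1 RNA per vector, the vector cannot be told apart from differences between the cultures, sorts or RNA preparations. The labels do not say how many animals were pooled. Since the arrays repeat the measurement of 1 RNA pair, no p-value can be given and each value describes these RNAs. In bulk RNA, fewer cells of a type and less RNA per cell cannot be told apart.

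C2H2 zinc fingers are short folds held by a zinc ion between cysteines and histidines, and proteins with long rows of them recognise DNA. Many of the mouse proteins also carry a KRAB domain, which recruits the corepressor Trim28 and silences transposons and genes. A microRNA binds messenger RNAs by its seed and lowers their translation or stability; sites in coding regions, which the repeated fingers of this class are reported to hold for miR-181, generally act more weakly on RNA level than sites in the 3′ untranslated region.

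The sequence of the miRNA and of its sites in the members' probes is shown first, because the seed match recurs in the finger repeat itself. The 4 mature mouse miR-181 miRNAs in RefSeq (GRCm38.p6) share the seed, bases 2 to 8, in capitals:
mmu-miR-181a-5p: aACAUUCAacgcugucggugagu
mmu-miR-181b-5p: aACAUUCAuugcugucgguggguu
mmu-miR-181c-5p: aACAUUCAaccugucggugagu
mmu-miR-181d-5p: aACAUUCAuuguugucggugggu
The 6-base site complementary to bases 2 to 7 is GAATGT, and the 7-base site complementary to bases 2 to 8 is TGAATGT. A probe was counted as lying in a finger repeat when its sense strand held the linker motif (11 bases, of which 3 may be any base), which encodes the conserved link between fingers, or the finger motif (14 bases, of which 5 may be any base), which encodes the start of a finger. The first 3 bases of the finger motif can overlap the end of the 6-base site.

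In the 8 measured member probes that lie in a finger repeat and hold the 6-base site, shown to let the site be seen next to the finger it lies in, the site is in capitals:
Zfp119: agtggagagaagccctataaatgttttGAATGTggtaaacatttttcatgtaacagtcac
Zfp2: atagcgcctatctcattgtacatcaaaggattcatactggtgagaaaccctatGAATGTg
Zfp26: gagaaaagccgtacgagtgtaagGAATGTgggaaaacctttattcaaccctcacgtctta
Zfp37: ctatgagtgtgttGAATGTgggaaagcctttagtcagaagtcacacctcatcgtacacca
Zfp51: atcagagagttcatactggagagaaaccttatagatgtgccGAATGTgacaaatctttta
Zfp53: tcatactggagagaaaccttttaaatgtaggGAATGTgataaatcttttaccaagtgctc
Zfp748: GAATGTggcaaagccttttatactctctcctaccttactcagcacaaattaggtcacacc
Zfp97: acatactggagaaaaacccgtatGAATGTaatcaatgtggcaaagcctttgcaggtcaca
Probes of the same repeat without the site are shown for Zfp52 and Zfp551, with the linker or finger motif in capitals:
Zfp52: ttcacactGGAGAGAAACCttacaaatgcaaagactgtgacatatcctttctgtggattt
Zfp551: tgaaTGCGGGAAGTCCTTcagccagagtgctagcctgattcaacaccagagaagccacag
The 6-base site stood in 9 of the 35 probes of Zfp names that lie in a finger repeat (25.7%), in 19 of the other 447 probes of Zfp names (4.25%) and in 1054 of all 41174 probes (2.56%). On the opposite strand the shares were 2.86%, 1.79% and 1.86%. Because the finger motif can overlap the site, choosing probes by that motif can raise their share, which the opposite strand does not correct for. Finger-repeat probes of genes with no Zfp name held the 6-base site in 18 of 99 (18.2%). The 7-base site stood in 11.4% of the finger-repeat probes of Zfp names, 14.1% of those of genes with no Zfp name and 0.954% of all probes. Probes sample 60 bases of a transcript each, so a probe without the site says nothing of the rest of the messenger RNA, and a match is a description of the letters, not a bound site.

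The RNAs carried the B cell label's markers: 10 of 10 listed B cell genes were measured, at a median brightness percentile of 90.8. Of the markers of other cells, 6 of 8 T cell, 6 of 7 macrophage and monocyte, 4 of 5 dendritic cell, 3 of 5 natural killer cell and 2 of 6 granulocyte and mast cell genes were measured. Cd8a, Mrc1, Siglech, Ncr1, Gzma, Elane, S100a8, Cpa3 and Kit were not well above background in every channel, and Trac had no probe under that name. B cell markers had a median log2 ratio of 0.21 (-0.03 to 0.86), with mean log2 levels of 13.2 in control and 13.5 in miR-181b RNA. This value differed between the dye orientations: the median was -0.27 on array 1, where 8 of the 10 lay below 0, and 0.71 on array 2, where all 10 lay above 0. The T cell list was at 8.1 in both RNAs and the macrophage list at 8.6 in both. Within the T cell list, ratios ran from -0.19 (Lck, at a brightness percentile of 78.8) to 0.25 (Cd3e). Within the macrophage list they ran from -0.49 (Lyz2) to 0.27 (Itgam). The dendritic list was at 8.8 and 8.9, the natural killer list at 7.5 and 7.7, and the granulocyte and mast cell list at 7.2 and 7.1, in control and miR-181b RNA. Ratios in these lists ran from -0.11 to 0.30, from 0.00 to 0.34 and from -0.13 to -0.10, in the same order. The red cell globin genes Hbb-b1, at a brightness percentile of 89.1, and Hba-a1, at 42.6, had ratios of -0.29 and 0.39. The part of these shifts in the members' values was not tested. Per channel, 64.7% to 67.7% of the spots carried the flag, and the number of arrays limits the precision.

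Zfp genes as a group stayed close to the middle of all genes in the miR-181b cells. Each log2 ratio below divides miR-181b by control and averages the arrays, and the figure after ± is how far each array lay from that average, a technical spread. The median over the 224 members was -0.03 (-0.02 on array 1 and -0.03 on array 2), against -0.01 over all measured genes, and the interquartile range of the members was -0.12 to 0.10, against -0.10 to 0.10. No member was called at 1.5-fold in either direction, where a call asked for a mean ratio of 1.5-fold and arrays of equal sign; among all measured genes 0.509% were called lower and 0.814% higher. At 2-fold with each array at 1.5-fold the members' counts were again 0 and 0, against 0.0961% lower and 0.00565% higher of all genes. Members ranged from -0.44 to 0.54 and all genes from -2.45 to 2.61, but a range widens with the number of genes. The median size of the ratio was 0.12 over members and 0.10 over all genes. With arrays centred on the median and no loess, the median was -0.27 over members and -0.20 over all genes, and 10 members (4.46%) passed 1.5-fold lower, against 5.18% of all genes.

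**Figure D1:**
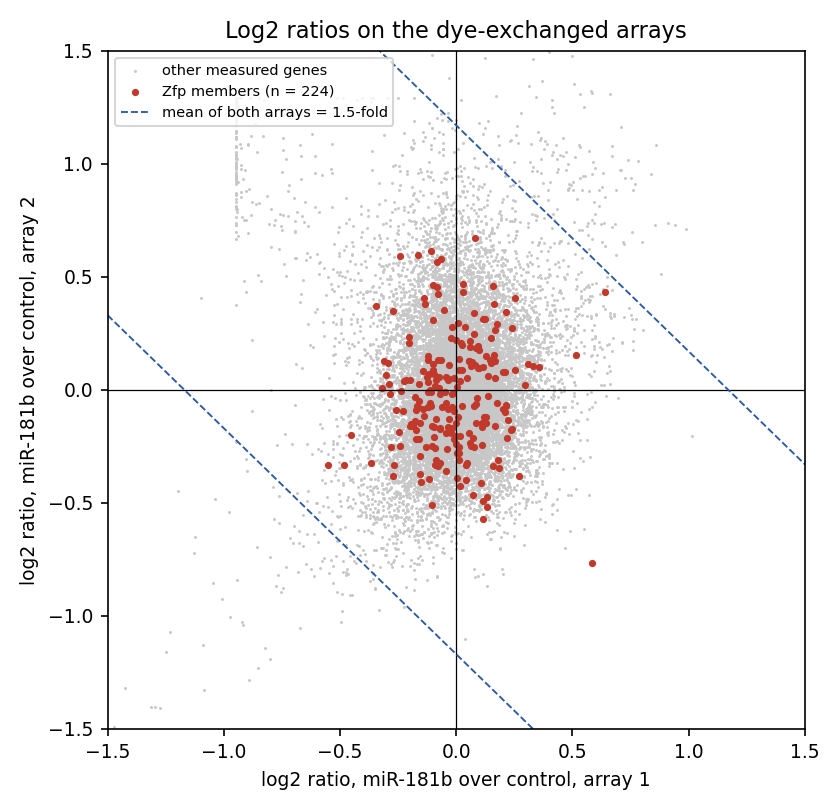
Log2 ratio of miR-181b over control on array 1 (x axis) and array 2 (y axis), one point per gene, with 224 Zfp members in red and other measured genes in grey. Genes beyond 1.5 on either axis are not drawn. Dashed lines mark a mean of 1.5-fold, and no member with the same sign on both arrays lies past them.

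Lower on both arrays were 73 members (32.6%), against 27.4% of all genes, and 54 (24.1%) were higher on both, against 24.4%. The remaining 97 had opposite signs. Across members, the ratio on array 1 had a Pearson correlation of 0.0569 with that on array 2, and across all genes it was 0.0288, or 0.223 without genes that have a saturated spot, which no member has; both arrays share the same 2 RNAs, and genes are not independent replicates. With a smaller rule of 1.25-fold and equal sign, added after the data were seen, 5 members were lower and 4 higher. That is to be read against 3.22% lower and 3.97% higher of all genes.

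The dye exchange gives a scale for these differences. The dye contrast averages Cy5 over Cy3 across the arrays, so that the RNA difference cancels. With 1 array per dye orientation its size equals the figure after ±, so dye cannot be told apart from other differences between the arrays. It passed 1.25-fold in 9 members, 5 brighter in Cy3 and 4 in Cy5, against 4.22% and 1.14% of all genes. At 1.5-fold it called 1 member, Zfp1, whose ratio was 0.58 on array 1 and -0.77 on array 2; of all genes it called 1.44% on the Cy3 side and 0.0113% on the Cy5 side. The median size of the dye contrast was 0.09 over members and that of the RNA contrast 0.12, while the 90th percentiles were 0.25 and 0.24. At the upper end, the members' dye contrast was about as large as their RNA contrast.

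**Figure D2:**
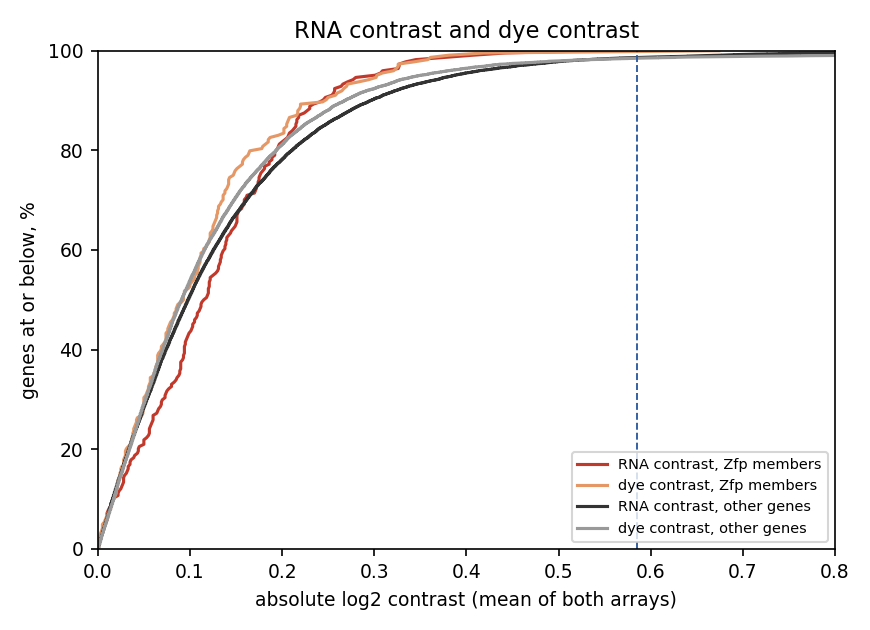
Cumulative share of genes (y axis, %) against the absolute log2 contrast (x axis), for the RNA contrast and the dye contrast of Zfp members and of other measured genes. The dashed line marks 1.5-fold; for the members the 90th percentiles of the contrasts are 0.24 (RNA) and 0.25 (dye).

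Among bright members the balance of signs leaned to lower. The measured genes were divided into 4 equal classes by intensity, and the brightest class held 36 members. Their median was -0.09 (array 1, -0.09; array 2, -0.07), against 0.00 for all genes of that class. Lower on both arrays were 19 of these 36 (52.8%) and 6 were higher, while 25.2% of all genes of the class were lower and 24.4% higher. In the other classes, from dim to bright, the member medians were -0.01, -0.02 and -0.04, and 12 of 38 (31.6%), 18 of 68 (26.5%) and 24 of 82 (29.3%) members were lower on both arrays, close to the 28%, 28.5% and 28.1% of all genes in those classes. The split by brightness was looked at with the ratios known, and 36 members of 1 pair of RNAs are no replicates. When all probes of a gene were averaged, 15 of the 36 bright members were lower (41.7%) and 7 higher, against 23.8% lower and 25.9% higher of the other genes of that class.

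**Figure D3:**
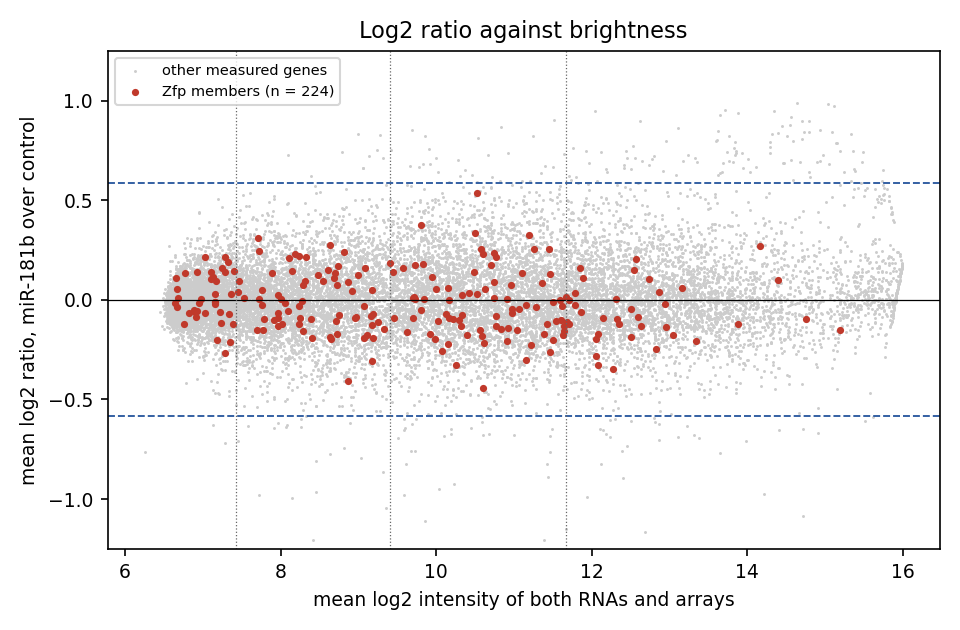
Mean log2 ratio of miR-181b over control (y axis) against mean log2 intensity over both RNAs and arrays (x axis), with Zfp members in red and other genes in grey. Dotted lines bound the 4 brightness classes and dashed lines mark 1.5-fold; genes beyond 1.25 on the y axis are not drawn. Members spread on both sides of 0, and in the brightest class 19 of 36 were lower on both arrays.

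The lowest ratios were seen at Zfp292, Zfp654 and Zfp496, each lower on both arrays. The order of the lowest members depended on the processing, as given below. Zfp292, which encodes a large C2H2 protein, had log2 intensities of 10.87 and 10.77 in control RNA and 10.32 and 10.44 in miR-181b RNA on arrays 1 and 2. Both control values lay above both miR-181b values, and the ratio was -0.44 ± 0.11, or 1.36-fold lower, with a second, dim probe at -0.12. Zfp654 had 9.15 and 9.0 in control RNA and 8.67 and 8.67 in miR-181b RNA. Its ratio was -0.41 ± 0.08 and its other probe gave -0.45. Zfp496 (now Zkscan17), whose protein binds the histone methyltransferase Nsd1, was at 12.43 and 12.48 in control RNA and 12.07 and 12.15 in miR-181b RNA. This separation was of nearly equal size on both arrays, at -0.35 ± 0.02.

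Zfp336 (now Gzf1), a factor induced by the growth factor GDNF, was at 10.43 and 10.41 in control and 9.98 and 10.21 in miR-181b RNA, or -0.33 ± 0.13. Its other probe was at 0.20, so the probes of this gene differed in sign. Zfp524 was at 12.18 and 12.30 in control and 11.91 and 11.92 in miR-181b RNA, or -0.33 ± 0.05, from a single probe. These 5 are the members past 1.25-fold lower. The 10 lowest were ranked by whichever array's ratio was smaller in size, which favours likeness between arrays. The rest of these 10 were Zfp329 at -0.30 ± 0.03, Zfp184 at -0.27 ± 0.01, Zfp68 at -0.24, Zfp608, reported to repress the Rag genes in thymocytes, at -0.22 ± 0.03, and the BTB domain factor Zfp131 at -0.18. By the mean, Zfp81 (-0.31), Zfp277 (-0.28), Zfp12 and Zfp60 (both -0.26), named after their values were seen, lay below Zfp68, Zfp608 and Zfp131. Further probes gave smaller values for Zfp329 (-0.13 and -0.02) and Zfp608 (-0.04 and -0.07), whose means over all probes were -0.15 and -0.11. In all 10 ranked members the 2 control values lay above the 2 miR-181b values, which the ranking favours.

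The highest member was Zfp508 (now Adnp2), which encodes a homeodomain and zinc finger protein related to the chromatin factor Adnp. Its log2 intensities were 10.18 and 10.34 in control RNA and 10.82 and 10.78 in miR-181b RNA. The ratio was 0.54 ± 0.10 (1.45-fold higher), its other probe was at 0.64, and the mean over both probes passed 1.5-fold. Both probes exceeded the chosen probe of every other member.

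Zfp384, whose protein binds runs of T and whose human counterpart is fused to other genes in B cell leukaemia, was at 11.17 and 10.91 in control RNA and 11.42 and 11.31 in miR-181b RNA. Its ratio was 0.33 ± 0.08, and its 3 probes ran from 0.05 to 0.33. Zfp383 was at 10.21 and 10.45 in control and 10.73 and 10.60 in miR-181b RNA, or 0.33 ± 0.18, a difference carried mostly by array 1. The fourth member past 1.25-fold higher, Zfp499 (now Zbtb45, named after its values were seen), was at 0.38 ± 0.29, from 0.08 on array 1 and 0.67 on array 2. Zfp207, which encodes a microtubule-binding protein that loads Bub3 onto kinetochores in mitosis, was at 14.10 and 13.96 in control and 14.26 and 14.34 in miR-181b RNA, or 0.27 ± 0.11. Of the others, Zfp518 (now Zfp518a) was at 0.31 ± 0.15, Zfp574 at 0.26 ± 0.02, Zfp580 at 0.23 ± 0.06, Zfp324 at 0.22 ± 0.05 and Zfp53 at 0.16. With arrays centred on the median and no loess, where all genes shift to -0.20, Zfp384 (-0.01), Zfp207 (-0.14), Zfp574 (-0.08), Zfp580 (-0.09) and Zfp53 (-0.20) lay below 0.

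Zfp473, part of the machinery that processes histone messenger RNA, shows how far probes of 1 gene can differ. Its brighter probe was at 0.28 ± 0.07, with 8.50 and 8.49 in control and 8.71 and 8.83 in miR-181b RNA. Its other probe was at -2.02 on array 1 and -0.03 on array 2, a mean of -1.02 that rests on array 1, and the mean over both probes was -0.37. This and the second probe of Zfp508 are the only ones among the members' 390 probes past 1.5-fold with arrays of equal sign. Over the 106 members with several measured probes, the probes differed in sign in 54, and the median range between probes was 0.17.

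**Figure D4:**
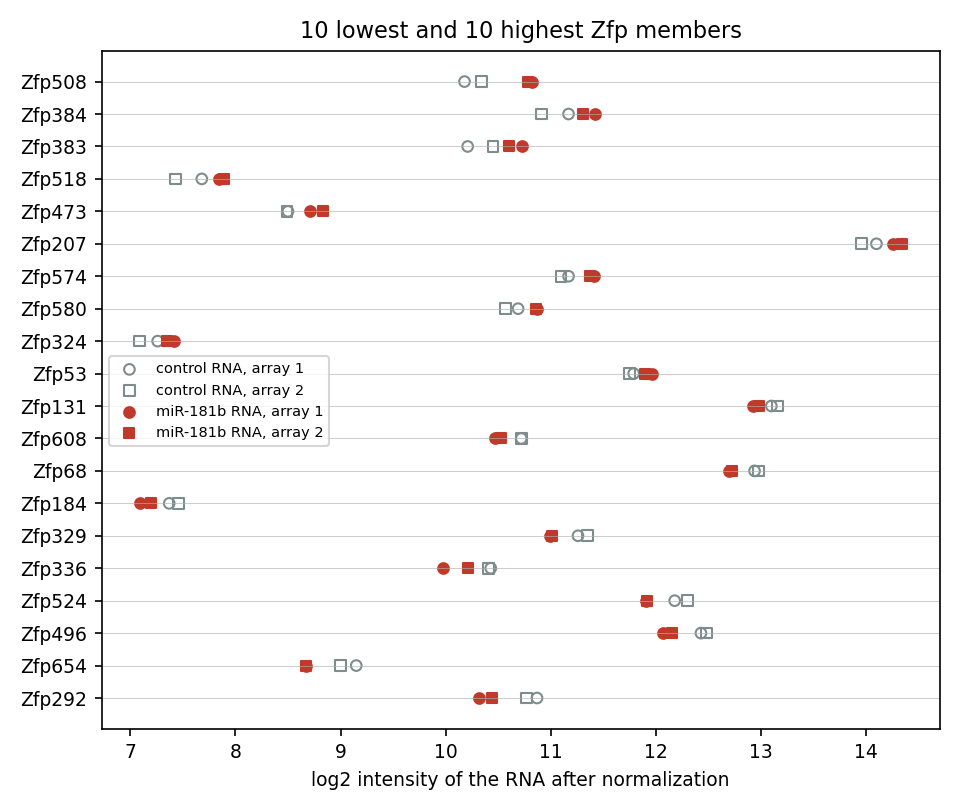
Log2 intensity after normalization (x axis) of the 10 lowest and 10 highest Zfp members in control RNA (open grey) and miR-181b RNA (red), on array 1 (circles) and array 2 (squares). The members were chosen from the same values, by whichever array's ratio was smaller in size, so the separation is a description. It spans -0.44 (Zfp292) to 0.54 (Zfp508).

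Members with a known role in RNA or protein handling showed no common direction. The CCCH-type proteins that bind AU-rich elements and speed messenger RNA decay are named Zfp without having C2H2 fingers. Of these, Zfp36 was at 13.04 and 12.64 in control and 12.77 and 12.99 in miR-181b RNA, with opposite signs on the arrays (0.04 ± 0.31). Zfp36l1 was at 14.82 and 14.79 in control and 14.70 and 14.72 in miR-181b RNA, or -0.10 ± 0.02. Zfp36l2, a dim probe, was at 0.11 ± 0.09. The ribosome quality control ligase Zfp294 (now Ltn1) was at -0.15 ± 0.19, and Zfp598, which senses collided ribosomes, at 0.15 ± 0.14. The ubiquitin ligases Zfp313 (now Rnf114) and Zfp91 were at -0.15 ± 0.06 and -0.06 ± 0.06, and Zfp364 (now Rnf115) at 0.10 ± 0.21. Zfp179 (now Rnf112) was at 0.17 ± 0.08, Zfp289 (now Arfgap2), which acts in vesicle traffic, at 0.21 ± 0.13, and Zfp259 (now Zpr1) at 0.13 ± 0.15. The double-stranded RNA binding Zfp346 was at 0.12 ± 0.26, Zfp106, an RNA-binding protein, at 0.02 ± 0.22, Zfp326, a splicing-linked protein, at -0.15 ± 0.26, and Zfp622 and Zfp330 at -0.08 ± 0.13 and -0.12 ± 0.05. Without the 8 members of another zinc finger class the median of the remaining 216 was -0.03.

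Zfp318, needed in mature B cells for the splicing of the IgD heavy chain from the long transcript, was at 10.90 and 10.77 in control RNA and 10.61 and 10.79 in miR-181b RNA. It was lower on array 1 and level on array 2 (-0.13 ± 0.16), and its 4 probes ran from -0.36 to -0.03. The other transcription regulators named here lay between -0.19 and 0.09. Zfp148 was at -0.16 ± 0.16, the corepressor-bound Zfp217 at -0.19 ± 0.33, and the repressors Zfp238 (now Zbtb18) and Zfp281 at -0.10 ± 0.07 and 0.00 ± 0.21. Zfp143, an activator of small nuclear RNA genes, was at -0.08 ± 0.05, Zfp161 (now Zbtb14) at 0.09 ± 0.04, Zfp260 at -0.07 ± 0.09 and Zfp35 at 0.00 ± 0.22. Further probes of Zfp35 were at 0.30, 0.20 and 0.08, and those of Zfp143 and Zfp260 at 0.07 and 0.06. For Zfp217 the arrays disagreed, with 0.13 on array 1 and -0.52 on array 2. The members of these role groups were named for their role or zinc finger class, from lists chosen with earlier results of these data known. Zfp292 (-0.44), Zfp131 (-0.18) and Zfp207 (0.27), also listed for a known role, were described with the lowest and highest members.

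Members were next split by features that the choice did not use. Among the 13 members whose chosen probe holds the 6-base site, the median was 0.00 (array 1, -0.07; array 2, 0.03), with 4 lower and 1 higher on both arrays. The 211 without it had a median of -0.03 (-0.01 for array 1, -0.04 for array 2), with 69 lower and 53 higher. The order of the groups thus reversed between the arrays: members with the site were the lower group by array 1 and the higher group by array 2. So these values set no direction for the site. Of the probes printed above, Zfp51 was at -0.18 (11.66 and 11.77 in control, 11.55 and 11.52 in miR-181b RNA), Zfp37 at -0.06, Zfp26 at 0.01, Zfp119, Zfp2 and Zfp97 each at 0.03, Zfp53 at 0.15 and Zfp748 at 0.17. So the 8 finger-repeat probes with the site lay on both sides of 0, with a median of 0.03, and the 23 without it had 0.05. The printed probe of Zfp52 was at -0.21 and that of Zfp551 at 0.05. Over all measured member probes, the 24 with the site had a median of 0.02 and the 366 without it -0.02. Sites elsewhere in these transcripts were not analysed here.

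Many of these genes lie beside one another in the genome. With another member among the 3 nearest protein-coding genes on either side, 96 members had a median of -0.02, with 28 lower and 25 higher on both arrays. The 126 with no such neighbour had -0.04, with 44 lower and 29 higher. Only members counted as neighbours, and zinc finger genes under other names or not detected did not. Zfp51, Zfp52 and Zfp53 each have another member as such a neighbour and did not share a direction (-0.18, -0.21 and 0.16). The chosen probes of 6 members, Zfp51, Zfp52 and Zfp97 among them, share a stretch of 20 bases with a probe of another gene, so their signals may mix near-identical copies and are uncertain; without these 6 the median was -0.03.

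The corepressors of KRAB zinc finger proteins, a list of 17 genes all measured, had a median of 0.03, with 3 lower and 2 higher on both arrays and none past 1.5-fold. Named by the size of their ratio among those of equal sign on both arrays, Atf7ip was at 0.34 ± 0.14, the histone methyltransferase Suv39h2 at -0.18 ± 0.02, the remodeller Chd3 at -0.16 ± 0.01 and the deacetylase Hdac1 at -0.11 ± 0.07. Another probe of Suv39h2 was at 0.03, and the 4 probes of Chd3 ran from -0.16 to 0.17. Those of Atf7ip ran from 0.22 to 0.42, but with arrays centred on the median and no loess Atf7ip was at -0.01. Further C2H2 genes under other names ranged from -0.69 to 0.42, against -0.44 to 0.54 for the Zfp members. Among 96 measured, both arrays put 36 (37.5%) lower and 18 (18.8%) higher, against 27.4% and 24.4% of all genes. Their median was -0.04, and 2 passed 1.5-fold lower and 0 higher, against 0.509% and 0.814% of all genes. The 2 called genes were the immediate early genes Egr2 at -0.69 ± 0.10 and Egr1 at -0.68 ± 0.13. Egr3 was at -0.44 ± 0.08 and Ikzf3, the lymphoid factor Aiolos, at -0.54 ± 0.03, although further probes of these were at 0.04 and 0.14. The difference between the Zfp members and these other C2H2 genes was not tested.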

How the data were processed

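The deposited files hold each spot's linear intensity and its local background in Cy3 and Cy5, written by Agilent Feature Extraction 9.1.3.1 per the file headers. The files also give the log10 of Cy5 over Cy3 from signals that the authors' software had corrected for background and dye, per the file headers. This ratio served as an alternative with the sign of array 2 turned. The main ratios come from limma 3.58.1 (R 4.3.3), by normexp (offset 50) and loess within each array, with control spots at weight 0 and outlier spots left out (7 and 21). Spots of a probe were averaged, the brightest measured probe stood for a gene, and levels come from Aquantile scaling. The arrays count as 1 replicate, and the steps were tested on simulated data. Members matched RefSeq (GRCm38.p6) by accession (177), symbol (35) or synonym (11), with 1 unmatched. The array names no genome build, so positions are left out.

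Named were the 10 lowest and 10 highest members by whichever array's ratio was smaller in size, where signs were equal, members with a known role or of another zinc finger class, 5 genes on each side of the detection threshold, and up to 4 genes per other list. Members and lists were chosen with earlier results of these data known. Alternatives were the scanner's ratio, median centring, scaling between arrays, no background correction, the mean of all probes, single arrays, and leaving out saturated, dim, other-class or shared-stretch members. Splits by protein features and the 8 members with most finger patterns were not used here, nor was the deposited table of values, whose row identifiers matched no probe column. The result of 1 marker is not reported here.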

Additional observations from a re-analysis of the deposited data

How the results depend on the processing

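No paired analysis was possible because the numbered samples are dye-exchanged arrays of the same 2 RNAs. The members' median, -0.031, kept its sign throughout: it was -0.049 with the scanner's ratio, -0.023 without background correction, -0.011 with the mean of all probes, -0.056 over the 118 members brighter than the median gene, and -0.029 to -0.018 on single arrays. Less the median of all genes, it was -0.026 in the main setting, -0.035 with the scanner's ratio and -0.023 without background correction. This difference was -0.01 with the mean of all probes, -0.058 over the brighter 118, -0.023 on array 1 alone and -0.004 on array 2 alone. Median centring without loess moved the median of all genes to -0.204 and that of the members to -0.273, with 142 members lower (63.4%, against 55.3% of all genes) and 15 higher (6.7%, against 9.01%) on both arrays and 10 past 1.5-fold lower (4.46%, against 5.18%); relative to all genes the members' shift was then -0.069, against -0.026. There the 45 named genes changed sign in 16 cases, among them Zfp384, Zfp207, Zfp574, Zfp580 and Zfp53. On single arrays 7 and 10 of the 45 changed sign, and with the mean of all probes 5 did, Zfp473 (-0.37) and Zfp259 (-0.02) among them. Among the brighter 118, 43 were lower (36.4%, against 26.6% of all such genes) and 24 higher (20.3%, against 25.2%). With the mean of all probes 1 member (Zfp508, 0.446%) was past 1.5-fold higher, against 0.797% of all genes. The dye contrast called 1 member, against 0.0113% of all genes on the Cy5 side. At 1.25-fold 5 members were lower and 4 higher, against 3.22% and 3.97% of all genes. Single arrays, where no agreement of sign is asked, gave 0 to 1 lower and 1 to 4 higher at 1.5-fold. The share of all genes past 1.5-fold on single arrays was not counted. Other alternatives changed no median or count by more than the arrays' spread or 1.5 times. The offset shrinks ratios of dim probes: Zfp184 was at -0.51 and Zfp324 at 0.42 by the scanner's ratio. By that ratio Zfp184 lay below Zfp654 (-0.50) and Zfp292 (-0.49). Zfp449 (-0.45) and Zfp30 (-0.43) then lay below Zfp496 (-0.35). The protein splits and the deposited table of values were not run.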

Other observations

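RefSeq now gives Zfp names to 107 further measured genes that the array lists under other names. Their median was -0.01. On both arrays 29 (27.1%) were lower and 20 (18.7%) higher, against 27.4% and 24.4% of all genes. None was past 1.5-fold, against 0.509% lower and 0.814% higher of all genes. The lowest, Zfp773, was at -0.49 ± 0.29 (-0.20 on array 1 and -0.78 on array 2), with another probe at -0.09. Zfp944 was at -0.32 ± 0.22 and Zfp607b, a dim probe, at -0.31 ± 0.02, while Zfp941 was at 0.29 ± 0.13. By the scanner's ratio, which has no offset, Zfp607b was at -0.79 and Zfp941 at 0.62. In that setting 1 of the 107 passed 1.5-fold lower and 1 higher, against 1.16% and 1.28% of all genes. Of the 224 members, 28 now carry a symbol that does not begin with Zfp.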
